A study of Mus musculus with 9 samples.

Results

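The 41 genes described here encode parts of the Wnt signalling pathway, and their transcripts were followed in cardiomyocytes of CD-1 mice at postnatal day 1 (P1), day 14 (P14) and day 56 (P56). They were chosen by symbol from the 15824 genes of the count table, and comprise 6 Wnt ligands, the acyltransferase gene Porcn, 9 frizzled receptors (Fzd), the co-receptors Lrp5 and Lrp6, 4 genes of the Lgr and R-spondin (Rspo) families, the ubiquitin ligase gene Znrf3, 4 secreted antagonists of the Sfrp and Dkk families, 3 dishevelled genes (Dvl), 6 genes of the beta-catenin destruction complex, Ctnnb1 itself and 4 nuclear factors of the Tcf7 and Lef1 family. In the GENCODE annotation of mouse build GRCm38, 63 protein-coding genes carried a symbol of these families, and 22 of them, including Wnt3a, Wnt7b, Dkk1, Lgr5 and Rnf43, were not analysed here. Total RNA depleted of ribosomal RNA was sequenced from 3 libraries per age, and the labels name no allele, agent or surgery for any of the 9. Each library came from pooled hearts, 12 of them for P1 and 6 to 7 for the later ages, so n counts pools, which the design text calls biological triplicates. The protocols describe whole cardiomyocytes as well as sorted nuclei carrying Pcm1, and mention mice after an operation; which steps each library went through is not settled by them.

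Wnt proteins are secreted, lipid-modified ligands that bind a frizzled receptor, often together with Lrp5 or Lrp6. In the absence of ligand, a complex built on Axin and Apc lets the kinase Gsk3 mark beta-catenin, the product of Ctnnb1, for degradation; when a ligand binds, dishevelled proteins help to inactivate that complex, and beta-catenin enters the nucleus and acts with Tcf and Lef factors on target genes. Other branches, used by Wnt5a and Wnt11 among others, work without beta-catenin through cell polarity and calcium, and both kinds of signal are known for roles in the specification and patterning of the embryonic heart.

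For 3 of the genes, the 300 bases around a RefSeq transcription start (250 before it and 50 after it, build GRCm38.p6) are printed. Wnt11 and Fzd7 were picked because they carried the largest rises from P1 to P56 among ligands and receptors, and Axin2 because it is a widely used target gene of beta-catenin. No result below rests on these windows. Each window was searched on both strands for a core of the Tcf and Lef recognition sequence, spelled CTTTG followed by AA, AT, TA or TT, and capitals mark a match; lower case marks everything else.
Wnt11, chr7:98834862-98835161, plus strand: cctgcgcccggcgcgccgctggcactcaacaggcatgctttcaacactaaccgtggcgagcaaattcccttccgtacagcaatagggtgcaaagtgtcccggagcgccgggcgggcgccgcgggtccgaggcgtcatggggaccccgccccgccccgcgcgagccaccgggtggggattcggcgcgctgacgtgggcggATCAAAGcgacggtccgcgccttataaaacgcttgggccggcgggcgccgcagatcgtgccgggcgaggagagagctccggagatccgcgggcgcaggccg
Fzd7, chr1:59481897-59482196, plus strand: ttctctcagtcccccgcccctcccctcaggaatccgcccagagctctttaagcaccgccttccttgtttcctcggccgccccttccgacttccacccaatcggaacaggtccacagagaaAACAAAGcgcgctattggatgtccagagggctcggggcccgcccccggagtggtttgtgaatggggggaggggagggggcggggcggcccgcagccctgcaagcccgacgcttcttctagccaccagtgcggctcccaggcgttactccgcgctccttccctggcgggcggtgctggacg
Axin2, chr11:108920099-108920398, plus strand: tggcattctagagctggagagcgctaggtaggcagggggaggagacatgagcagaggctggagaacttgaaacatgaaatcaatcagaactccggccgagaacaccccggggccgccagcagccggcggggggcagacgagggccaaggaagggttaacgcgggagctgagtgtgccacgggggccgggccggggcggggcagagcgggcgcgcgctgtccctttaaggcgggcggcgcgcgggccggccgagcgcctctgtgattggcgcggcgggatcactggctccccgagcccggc
The printed Wnt11 window, 1 of 2 for this gene, held the core as ATCAAAG, the reverse strand of CTTTGAT, 51 bases before the start, and the Fzd7 window held AACAAAG 130 bases before it. The other Wnt11 window, chr7:98838595-98838894, held none, and none of the 4 spellings was present in these 300 bases of Axin2. A window was found for 26 of the 41 genes, 38 windows in all, of which 7 (18.4%) held the core, in Apc2, Fzd7, Gsk3a, Lef1, Tcf7l2, Wnt11 and Wnt5b. Of all 32851 RefSeq windows of that length, 16.9% held it, so a match is a description of these letters and no evidence of a site.

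Library totals ranged from 49190887 to 58538025 counts (P1), 36619799 to 38878181 (P14) and 45866453 to 49535917 (P56). Levels are given as CPM, the counts per 1e+06 counts of a library, with library sizes scaled by the TMM method. The 9 cardiomyocyte markers, among them Myh6 and Tnnt2, summed to between 51184 and 91327 CPM in every library, so the labelled cell type carried its defining transcripts. Transcripts of other cell types were present too, and their score was highest at P14. The marker score, the mean log2 CPM of 45 measured markers of other cell types (of 53 listed), lay between 1.64 and 2.19 in the P1 libraries, 2.59 and 3.79 in those of P14 and 0.86 and 1.85 in those of P56. Summed fibroblast markers ran from 157 to 317 CPM (P1), 218 to 804 CPM (P14) and 50.5 to 99.3 CPM (P56), and summed endothelial markers from 75.5 to 107, 236 to 602 and 39.8 to 101 CPM. Summed smooth muscle and pericyte markers ran from 168 to 196, 197 to 296 and 51.9 to 85.2 CPM, and summed leukocyte markers from 3.30 to 4.95, 7.01 to 20.2 and 6.28 to 12.9 CPM. Of the 5 measured epicardial markers, Wt1, Upk3b, Msln and Muc16 rose from P1 to P14 and Tbx18 fell. Tbx18, at 34.5 CPM on average at P1 and 9.44 at P14, made up most of their sum, which was 37.5 to 39.8 CPM (P1), 16.9 to 30.4 (P14) and 6.04 to 13.4 (P56). The mesothelial gene Msln was the only one of the 45 at 0 counts in any library (2 libraries). P14 replicate 1 had the highest score, 3.79, against 3.28 and 2.59 for P14 replicates 2 and 3. Of the 45 markers, 31 rose and 5 fell from P1 to P14, 30 fell from P14 to P56, and 8 rose and 14 fell from P1 to P56. P56 against P1 is therefore the comparison in which the fewest of these markers were called, and it is described before the others in each group below. Single lists still moved between P1 and P56. In the larger lists the median log2 change was −1.32 for fibroblast, −1.76 for epicardial and −0.52 for endothelial markers. It was −0.25 for smooth muscle and pericyte markers and 1.49 for leukocyte markers.

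From P1 to P56 the ligand Wnt11, the receptors Fzd7 and Fzd6, the R-spondin receptor Lgr6 and the negative regulators Axin2 and Apc2 rose, while Sfrp1, Dkk3, Rspo3, Fzd3, Fzd1, Fzd2, Lef1 and Tcf7 fell. By edgeR's quasi-likelihood test, adjusted by Benjamini-Hochberg over 15817 genes with a threshold of 0.05, 12 of the 41 genes rose and 21 fell (33 in all, 80.5%). Over all genes tested, 30.9% rose and 31.7% fell (62.6% in either direction), so the share that rose was close to the background and the share that fell was higher than it. The median log2 change of the 41 genes was −0.30, against −0.03 over all genes. The CPM of the P56 and P1 libraries did not overlap for 13 genes higher at P56 and 22 higher at P1, where 35.0% and 37.1% of all genes were so. The 41 genes together made up 2080 to 2162 CPM in the P1 libraries, 2100 to 2152 in those of P14 and 1942 to 2044 in those of P56.

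From P1 to P14, 17 of the 41 genes rose and 16 fell, against 28.4% and 27.5% of all genes (55.9% in either direction), and the libraries of those ages did not overlap for 15 genes higher at P14 and 16 higher at P1, against 31.0% and 32.9%. From P14 to P56, 8 rose and 21 fell, against 27.5% and 28.5% (56.0%), and 8 were without overlap and higher at P56 and 20 higher at P14, against 30.2% and 29.3%. Both intervals share the P14 libraries, so a P14 value that is high by itself gives a rise and then a fall. P14 was set against the mean of P1 and P56 as a separate contrast, in which 13 genes were higher at P14 and 6 lower, against 26.0% and 24.1% of all genes (50.0%). Across the 3 ages 37 of the 41 genes differed by the F test, against 78.0% of all genes, and the exceptions were Lrp6, Porcn, Tcf7l2 and Rspo2.

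**Figure D1:**
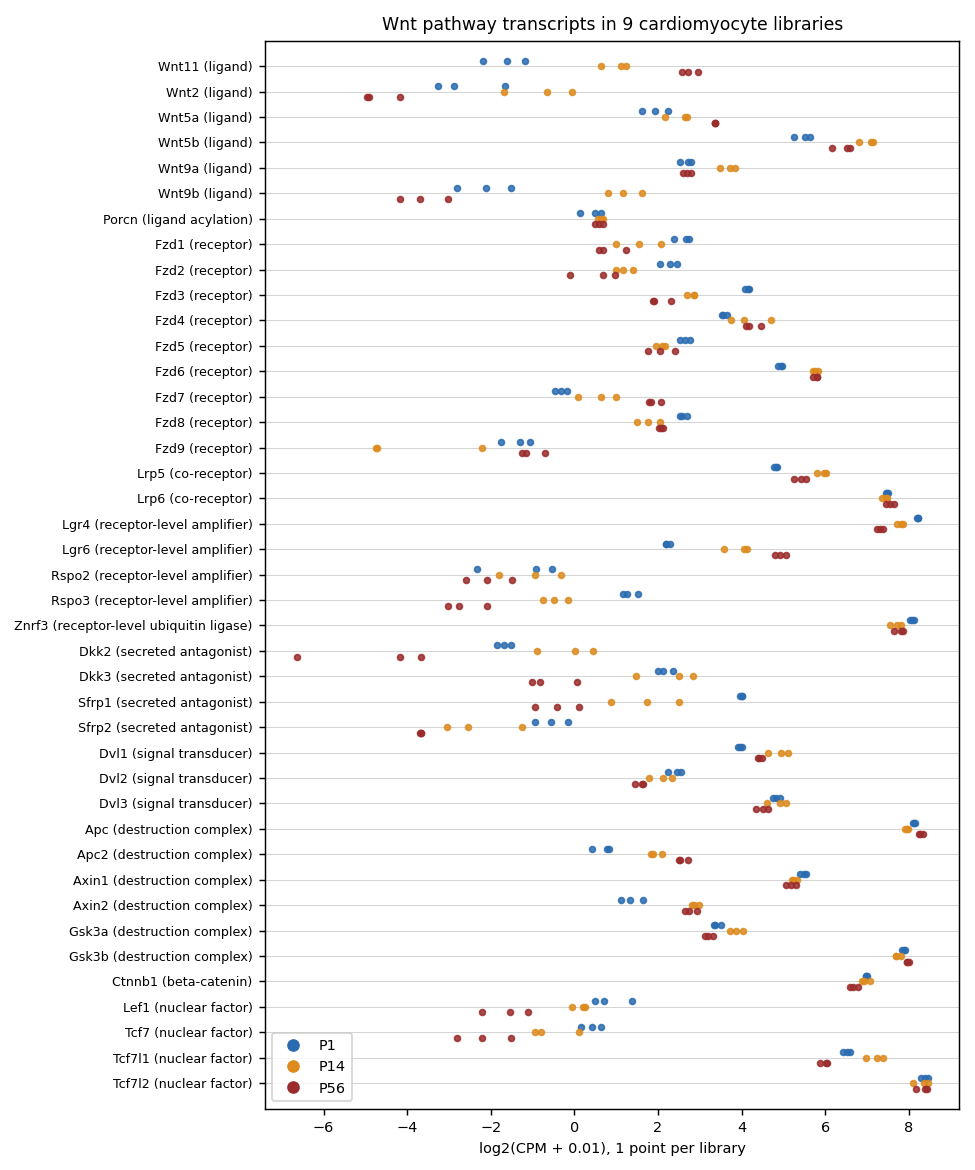
Level of each of the 41 genes in every library, as log2 of CPM plus a pseudocount of 0.01 on the x axis, with 1 point per library coloured by age and the genes ordered by role. Wnt11, Lgr6 and Fzd7 move to the right with age, Sfrp1, Rspo3 and Fzd3 to the left, and Lrp6 and Tcf7l2 have ranges that overlap between the ages.

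**Figure D2:**
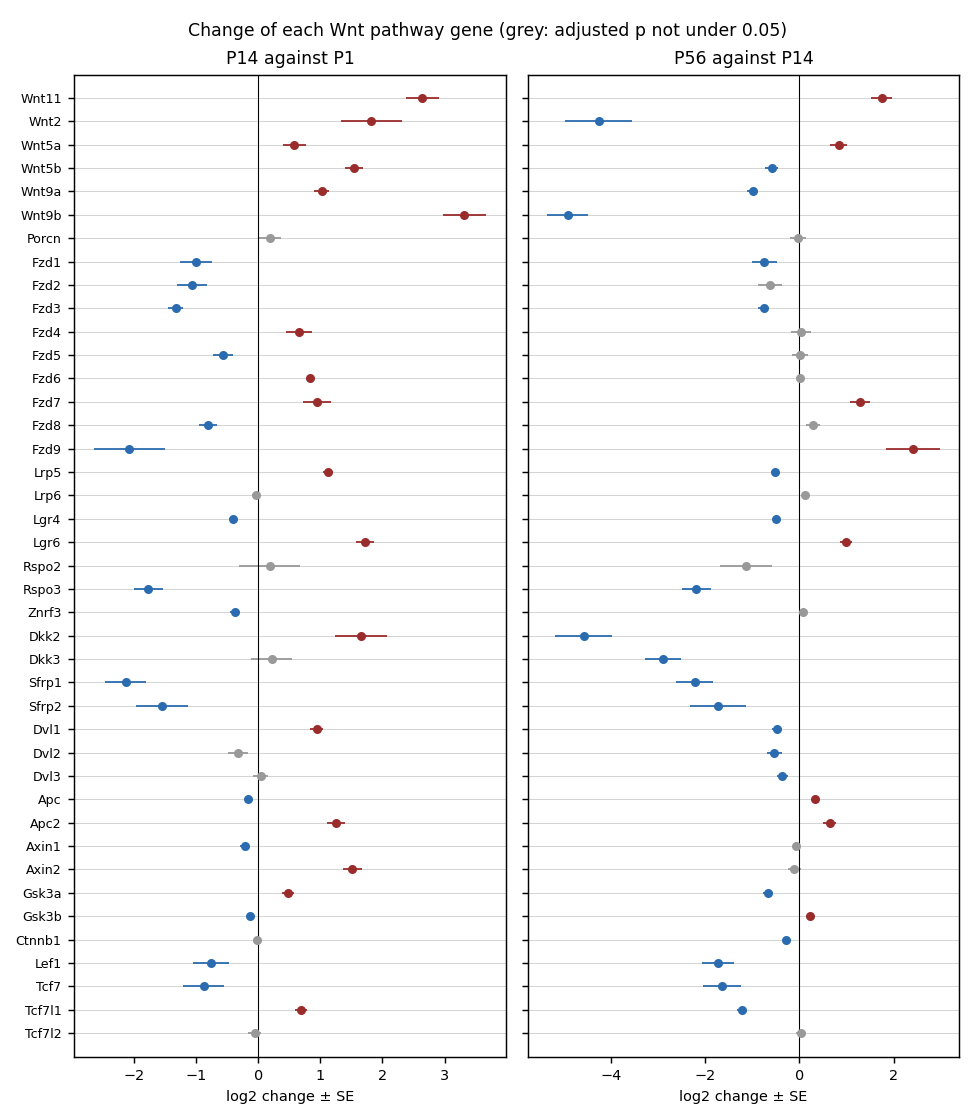
Fitted log2 change of each gene from P1 to P14 (left) and from P14 to P56 (right) with its standard error, red for an adjusted p under 0.05 and positive, blue for negative, grey for the rest; both panels share the P14 libraries. All 6 ligands lie to the right of 0 in the left panel, and all 4 secreted antagonists and all 3 dishevelled genes to the left of 0 in the right panel.

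Levels were compared between genes per length of the gene. At P1, per kilobase of annotated exon, Lgr4 had the highest level (50.4 CPM per kilobase), followed by Tcf7l2 with 37.9, Znrf3 with 34.2, Ctnnb1 with 24.4 and Gsk3b with 23.8. Per kilobase of the whole gene span the leading gene was Ctnnb1 with 4.05, followed by Lgr4 with 3.07 and Apc with 2.74. The sources used here do not say whether exons or whole genes were counted, and the order depends on the length used.

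All 6 measured ligands differed among the ages by the F test, as did 78.0% of all genes. From P1 to P56 Wnt11 and Wnt5a, ligands best known for signalling without beta-catenin, and Wnt5b, a close relative of Wnt5a, rose; Wnt9a returned to its level at P1. Wnt11 (ENSMUSG00000015957, chromosome 7, 98835112 to 98855195, plus strand, the gene whose promoter is printed above) stood at 0.316, 0.208 and 0.432 CPM in the P1 libraries, 1.53, 2.35 and 2.15 at P14, and 6.57, 7.71 and 5.95 at P56. No library of one age overlapped another age, and the order was the same at both steps. Its log2 change was 4.39 ± 0.26 (SE) from P1 to P56, a 20.9-fold rise (adjusted p = 3.82e-07), made of 2.64 ± 0.27 to P14 and 1.74 ± 0.22 after it. The counts behind it were 11 to 24 per library at P1 and 267 to 336 at P56.

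Wnt5a (chromosome 14, 28504750 to 28527448, plus strand) stood at 3.05, 3.81 and 4.70 CPM at P1, 6.49, 4.52 and 6.26 at P14, and 10.2, 10.4 and 10.2 at P56. The P56 libraries lay above all others, while one P14 library fell among those of P1. The log2 change was 1.42 ± 0.18 from P1 to P56 (2.67-fold, adjusted p = 6.36e-05) and 0.83 ± 0.17 from P14 to P56 (adjusted p = 0.00268). The rise from P1 to P14, 0.58 ± 0.18 (adjusted p = 0.0188), missed the threshold without P1 replicate 1, P1 replicate 2 or P14 replicate 3, where it was 0.44 to 0.57. Per kilobase of exon, Wnt5b had the highest level of the ligands at every age, with 16.8, 48.9 and 32.5 CPM per kilobase at P1, P14 and P56.

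Wnt5b (chromosome 6, 119432531 to 119544347, minus strand) and Wnt9a, a ligand also expressed in skeletal tissues, both peaked at P14. Wnt5b stood at 45.7, 50.0 and 38.1 CPM at P1, 112, 137 and 140 at P14, and 71.1, 96.2 and 91.2 at P56. Its 3 ages were without overlap, in the order P1, P56, P14. It rose by a log2 change of 1.54 ± 0.14 to P14 (adjusted p = 1.58e-05), changed by −0.59 ± 0.14 from there to P56 (adjusted p = 0.00483) and was 1.93-fold higher at P56 than at P1 (0.95 ± 0.14, adjusted p = 0.000193). Wnt9a stood at 6.53, 6.86 and 5.71 CPM at P1, 11.2, 13.1 and 14.3 at P14, and 6.45, 6.96 and 6.01 at P56. The P14 libraries were above all 6 others, and P1 and P56 overlapped: the log2 change was 1.02 ± 0.12 to P14, −0.99 ± 0.12 after it and 0.02 ± 0.12 over the whole span (adjusted p = 0.872). Within P14, Wnt5b and Wnt9a were lowest in replicate 1, the library with the highest marker score, and highest in replicate 3, the one with the lowest. Fbxl14, also in the table, lies within the span of Wnt5b outside its exons.

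Wnt9b, a ligand known from the endocardium of developing valves, and Wnt2, a ligand known from early heart and lung progenitors, were low and had their highest level at P14. Wnt9b stood at 0.221, 0.133 and 0.342 CPM at P1, 3.07, 2.24 and 1.74 at P14, and 0.113, 0.0459 and 0.0668 at P56. Every P14 library was above every other one; the P56 values rest on 5, 2 and 3 counts. Wnt9b rose 10.0-fold to P14 (log2 change 3.32 ± 0.35, adjusted p = 4.05e-05). Wnt2 had 8, 5 and 17 counts at P1, 37, 23 and 11 at P14, and 2, 1 and 1 at P56, which is 0.095 to 0.306, 0.303 to 0.946 and 0.022 to 0.045 CPM. The P14 and P1 libraries overlapped, and all P56 libraries were below them. In the P14 libraries both genes were ordered as the marker score, with a ratio of 3.12 between replicates 1 and 3 for Wnt2 and 1.76 for Wnt9b. In a fit with the marker score as a covariate, the log2 change of Wnt2 from P1 to P14 was −0.19, where the fit without it gave 1.82 ± 0.50; the part of other cell types in these values was not tested further. In pooled material of this kind, fewer cells of a type and less RNA per cell cannot be told apart. The fall of Wnt9b and Wnt2 between P1 and P56 passed the threshold (adjusted p = 0.0227 and 0.0248) but missed it without P1 replicate 3, P56 replicate 2 or P56 replicate 3, with log2 changes of −1.51 to −1.22 for Wnt9b and −2.29 to −1.80 for Wnt2.

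**Figure D3:**
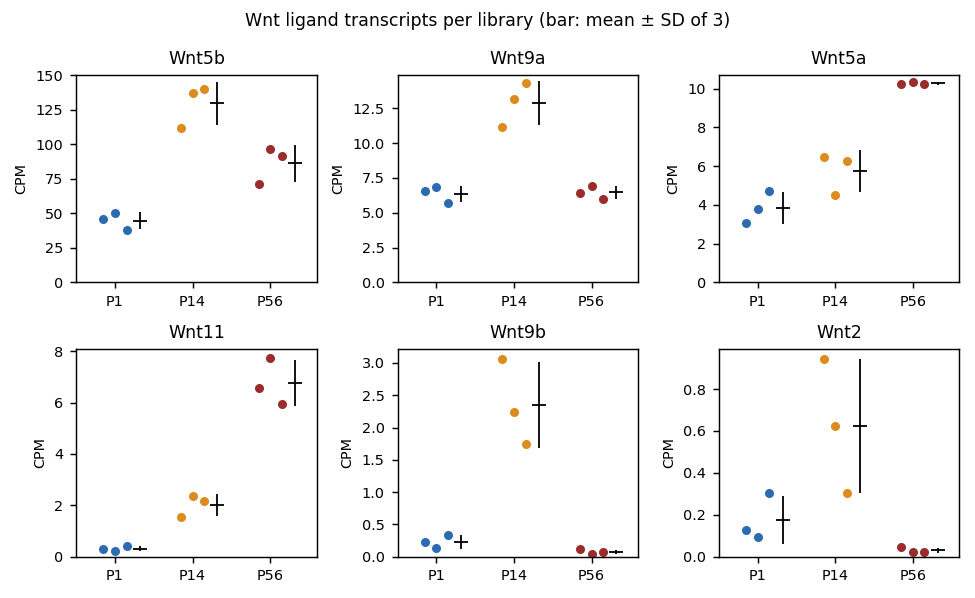
CPM of the 6 Wnt ligands in each library at P1, P14 and P56, with the mean and SD of 3 libraries beside the points. Wnt11 and Wnt5a are highest at P56, Wnt5b, Wnt9a, Wnt9b and Wnt2 at P14, and the 3 points of Wnt9b at P14 spread from 1.74 to 3.07 CPM.

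Porcn, which encodes the enzyme that attaches the lipid to Wnt proteins, showed no difference past the threshold. It stood at 1.41, 1.55 and 1.08 CPM at P1, 1.46, 1.60 and 1.54 at P14, and 1.61, 1.49 and 1.4 at P56. The libraries of all ages overlapped, and the log2 change from P1 to P56 was 0.16 ± 0.17 (adjusted p = 0.457).

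Of the 9 frizzled receptors, 3 rose and 5 fell from P1 to P56, and Fzd9 did neither. Over all genes tested, 30.9% rose and 31.7% fell, so the share of receptors that rose was close to the background. Fzd7, Fzd6 and Fzd4 rose; Fzd3, Fzd1, Fzd2, Fzd5 and Fzd8 fell. Fzd7 (chromosome 1, 59482424 to 59486955, plus strand, a single-exon gene whose promoter is printed above) stood at 0.711, 0.872 and 0.793 CPM at P1, 1.97, 1.54 and 1.05 at P14, and 4.19, 3.54 and 3.45 at P56. The ages were without overlap and in order of age. Its log2 change was 2.23 ± 0.22 from P1 to P56 (4.70-fold, adjusted p = 1.36e-05) and 1.29 ± 0.22 from P14 to P56 (adjusted p = 0.000756). The step from P1 to P14, 0.94 ± 0.23, was 0.36 with the marker score as a covariate, and the P14 libraries were ordered with that score.

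Fzd6, a receptor of the planar cell polarity branch, stood at 31.4, 29.3 and 30.8 CPM at P1, 56.8, 54.3 and 52.5 at P14, and 55.9, 52.7 and 56.3 at P56. The P1 libraries were below all others, and P14 and P56 overlapped. Fzd6 rose by 0.84 ± 0.06 on the log2 scale to P14 (adjusted p = 2.82e-06) and the change after P14 was 0.01 ± 0.06 (adjusted p = 0.881). An annotated gene of the table, Gm26704, overlaps an exon of Fzd6, so its counts could hold reads of both. Per kilobase of exon Fzd6 had the highest level of the 9 receptors at P1, with 6.33 CPM per kilobase against 1.78 for Fzd4, 1.45 for Fzd1 and 1.38 for Fzd3. At P56 it stood at 11.4, followed by Fzd4 with 2.85 and Fzd7 with 0.822, so Fzd7 had passed Fzd1, Fzd2 and Fzd3, whose levels were 0.431, 0.404 and 0.322. The leading receptor depended on the length used. Per kilobase of the whole gene span, Fzd1 led at P1 with 1.45 against 0.949 for Fzd6, and Fzd4 at P56 with 2.18 against 1.71.

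Fzd4, a receptor prominent in blood vessels, stood at 11.8, 11.5 and 12.6 CPM at P1, 26.1, 16.7 and 13.3 at P14, and 22.2, 17.3 and 18.0 at P56. The P1 libraries were lowest and the P14 libraries spread over the whole range, falling with the marker score. The log2 change from P1 to P56 was 0.68 ± 0.21 (adjusted p = 0.0178), and this call was lost without P1 replicate 1, P1 replicate 2 or P56 replicate 1 (0.56 to 0.67). The log2 change from P1 to P14, 0.65 ± 0.21 (adjusted p = 0.0251), became −0.11 with the marker score as a covariate. It also lost its call without any 1 of the P1 libraries or without P14 replicate 1, with values from 0.33 to 0.68. From P14 to P56 it was 0.03 ± 0.21, and it passed the threshold without P14 replicate 1 (0.35) and with the score as a covariate (1.13).

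Fzd3, which works in axon tracts and planar cell polarity, stood at 17.8, 17.0 and 18.0 CPM at P1, 7.26, 6.41 and 7.26 at P14, and 3.76, 3.67 and 4.92 at P56. The 3 ages were without overlap, falling with age. The log2 change was −2.10 ± 0.12 from P1 to P56 (0.234 times the P1 level, adjusted p = 3.79e-07), −1.34 ± 0.12 to P14 and −0.76 ± 0.12 after it. Fzd3 was also below the mean of P1 and P56 at P14 by 0.29 ± 0.11 (adjusted p = 0.0449), a call that was lost without any 1 library except P56 replicates 1 and 2, at −0.32 to −0.21.

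Fzd1 and Fzd2, close relatives of Fzd7 in sequence, went the opposite way to it. Fzd1 stood at 6.32, 5.23 and 6.72 CPM at P1, 4.17, 2.92 and 1.99 at P14, and 2.33, 1.49 and 1.60 at P56. P1 was above all other libraries, and P14 and P56 overlapped. Its log2 change was −1.75 ± 0.26 from P1 to P56 (adjusted p = 0.000248) and −1.01 ± 0.26 to P14 (adjusted p = 0.00771). The log2 change from P14 to P56, −0.74 ± 0.27 (adjusted p = 0.0397), was 0.73 with the marker score as a covariate, and missed the threshold without any 1 library except P14 replicate 3 and P56 replicate 1 (−0.77 to −0.44). Fzd2 stood at 4.84, 4.15 and 5.46 CPM at P1, 2.63, 2.24 and 1.99 at P14, and 1.59, 0.918 and 1.94 at P56. All 3 ages were without overlap, and the log2 change was −1.70 ± 0.24 from P1 to P56 (adjusted p = 0.000174). Its step after P14, −0.63 ± 0.25, missed the threshold (adjusted p = 0.057) and passed it without P14 replicate 3 or P56 replicate 3 (−0.87 to −0.72).

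Fzd5 and Fzd8 fell from P1 to P14. Fzd5 went from 6.26 ± 0.517 CPM (SD, n = 3) at P1 to 4.22 ± 0.313 at P14 and stood at 4.27 ± 0.962 at P56, with a log2 change of −0.55 ± 0.16 from P1 to P56 (adjusted p = 0.0125). Fzd8 went from 6.04 ± 0.355 to 3.44 ± 0.667 and 4.20 ± 0.143 CPM, a log2 change of −0.81 ± 0.14 to P14 (adjusted p = 0.000964) and −0.52 ± 0.14 from P1 to P56 (adjusted p = 0.00837). For both, every P1 library was above those of the later ages. Fzd9 rested on few reads: 25, 15 and 26 counts at P1, 8, 1 and 1 at P14, and 18, 19 and 27 at P56. The P14 libraries were below all others, and P1 and P56 overlapped (log2 change 0.33 ± 0.43, adjusted p = 0.523). The fitted steps were −2.08 ± 0.57 to P14 (adjusted p = 0.0115) and 2.41 ± 0.57 after it (adjusted p = 0.00527), on those few counts.

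The co-receptors, which take part in signalling through beta-catenin, parted from each other. Lrp5 stood at 28.6, 28.1 and 27.5 CPM at P1, 65.0, 62.3 and 55.5 at P14, and 42.9, 46.6 and 38.4 at P56. The ages were without overlap, with P14 highest. Lrp5 rose by 1.12 ± 0.08 on the log2 scale to P14 (adjusted p = 4.68e-06) and was 1.52-fold higher at P56 than at P1 (0.60 ± 0.08, adjusted p = 0.000146). Lrp6 stood at 177, 178 and 182 CPM at P1, 179, 165 and 176 at P14, and 201, 188 and 176 at P56. The libraries of the 3 ages overlapped, and the log2 change from P1 to P56 was 0.07 ± 0.06 (adjusted p = 0.303). Per kilobase of exon, Lrp6 stood at 13.1 CPM per kilobase at P1 and Lrp5 at 2.88; at P56 the values were 13.8 and 4.38.

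R-spondins and their Lgr receptors raise the number of frizzled receptors at the membrane by taking away the ubiquitin ligases Znrf3 and Rnf43, which would otherwise remove them. From P1 to P56, Lgr6 rose and Lgr4, Rspo3 and Znrf3 fell. Lgr6 (chromosome 1, 134983301 to 135105276, minus strand) stood at 4.52, 4.87 and 4.56 CPM at P1, 12.0, 17.5 and 16.6 at P14, and 27.8, 30.1 and 33.4 at P56. The ages were without overlap and rose in order of age. The log2 change was 2.71 ± 0.14 over the whole span (6.54-fold, adjusted p = 2.01e-07), 1.72 ± 0.14 to P14 and 0.99 ± 0.14 after it. The step after P14 was 0.43 with the marker score as a covariate, and its call was lost. Lgr4, the better counted relative, stood at 293, 300 and 296 CPM at P1, 234, 212 and 223 at P14, and 167, 158 and 151 at P56. Its ages were without overlap too, in the opposite order, with a log2 change of −0.90 ± 0.06 from P1 to P56 (adjusted p = 6.85e-07). Per kilobase of exon the levels of Lgr4 and Lgr6 were 50.4 and 0.679 CPM per kilobase at P1, and 27.0 and 4.44 at P56, so Lgr4 remained above Lgr6.

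Rspo3, the R-spondin known for a role in coronary vessel growth, stood at 2.39, 2.24 and 2.88 CPM at P1, 0.894, 0.703 and 0.579 at P14, and 0.113, 0.138 and 0.223 at P56. The ages were without overlap, and the P56 values rest on 5, 6 and 10 counts. Its log2 change was −3.96 ± 0.28 from P1 to P56 (0.0643 times the P1 level, adjusted p = 1.24e-06), and it fell by 1.78 ± 0.23 on the log2 scale to P14. With the marker score as a covariate, these changes were −3.74 and −2.22. The step after P14, −2.18 ± 0.31, was −1.53 with the score, and its call was lost. The part of other cell types in these values was not tested further. Rspo2 ranged over 0.190 to 0.684 CPM (P1), 0.276 to 0.792 (P14) and 0.156 to 0.344 (P56), all overlapping. Its change from P1 to P56, −0.95 ± 0.54 (adjusted p = 0.150), passed the threshold without P1 replicate 2 (−1.31), and that from P14 to P56, −1.12 ± 0.55 (adjusted p = 0.108), without P14 replicate 3 (−1.43).

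Znrf3 stood at 269, 280 and 260 CPM at P1, 186, 210 and 226 at P14, and 200, 223 and 232 at P56. The P1 libraries were above all later ones, and P14 and P56 overlapped. The log2 change was −0.31 ± 0.08 from P1 to P56 (adjusted p = 0.00843). At P14 it was below the mean of P1 and P56 by 0.23 ± 0.07 on the log2 scale (adjusted p = 0.0237), a call lost without P1 replicate 2, P14 replicate 1 or P14 replicate 2 (−0.24 to −0.16) and turned to 0.12 with the marker score as a covariate.

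All 4 secreted antagonists fell from P1 to P56, as did 31.7% of all genes. Sfrp1 and Sfrp2 encode frizzled-related proteins that bind Wnt ligands outside the cell, Dkk2 a ligand of Lrp5 and Lrp6, and Dkk3 a relative whose place in the pathway is less settled. Sfrp1 (chromosome 8, 23411502 to 23449632, plus strand) stood at 16.2, 15.5 and 16.0 CPM at P1, 5.65, 3.30 and 1.82 at P14, and 1.06, 0.735 and 0.512 at P56. No library of one age overlapped another. Its log2 change was −4.36 ± 0.39 from P1 to P56 (0.0486 times the P1 level, adjusted p = 5.84e-06) and −2.14 ± 0.33 to P14 (adjusted p = 0.000456). The step from P14 to P56, −2.22 ± 0.39, was −0.25 with the marker score as a covariate. At P1 Sfrp1 had the highest level of the 4 per kilobase of exon, 3.64 CPM per kilobase, and at P56 Dkk3 and Sfrp1 were close, with 0.206 and 0.176.

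Dkk3 stood at 4.35, 3.96 and 5.10 CPM at P1, 7.08, 5.65 and 2.76 at P14, and 1.04, 0.482 and 0.557 at P56. P56 was below all other libraries, and the P14 libraries lay on both sides of those of P1. Fitted log2 changes were −2.68 ± 0.38 from P1 to P56 (adjusted p = 0.000151) and 0.21 ± 0.32 from P1 to P14 (adjusted p = 0.603). With the marker score as a covariate, the value from P1 to P14 was −1.18. Dkk2 had 17, 16 and 19 counts at P1, 53, 37 and 19 at P14, and 3, 2 and 0 at P56; the count of 0 allows up to 3 counts. It was highest at P14 and lowest at P56 without overlap in CPM (0.269 to 0.342, 0.524 to 1.35, and 0 to 0.0679). Sfrp2 had 32, 35 and 49 counts at P1, 16, 6 and 4 at P14, and 3 in each P56 library. Its libraries were without overlap in CPM, but the call from P14 to P56 (adjusted p = 0.0315) was lost without P14 replicate 1 or any 1 of the P56 libraries, with log2 changes of −1.73 to −0.98, and its direction turned with the marker score as a covariate (0.25).

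**Figure D4:**
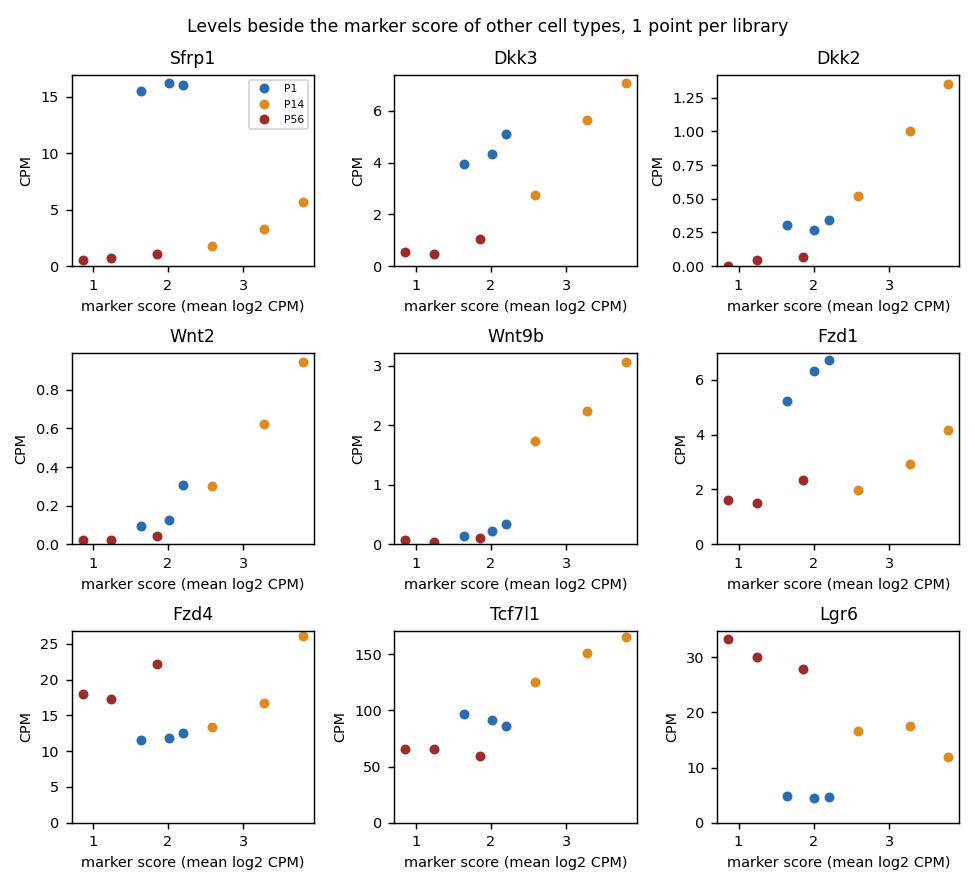
CPM of 9 Wnt pathway genes on the y axis against the marker score of other cell types (mean log2 CPM of 45 markers) on the x axis, 1 point per library coloured by age. Sfrp1 is near 16 CPM at P1 at scores between 1.64 and 2.19, and at 1.82 to 5.65 CPM at P14 at scores between 2.59 and 3.79. Within P14, all genes shown but Lgr6 rise with the score.

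Within P14, 18 of the 41 genes had the order of the marker score, highest in replicate 1 and lowest in replicate 3, 10 had the opposite order, and 13 did neither. The 18 held all 4 secreted antagonists, Wnt2, Wnt9b, Rspo2, Rspo3, Fzd1, Fzd2, Fzd4, Fzd6, Fzd7, Lrp5, Tcf7l1, Apc2, Gsk3b and Ctnnb1. The ratio of replicate 1 to replicate 3 was 3.70 for Sfrp2, 3.10 for Sfrp1, 2.58 for Dkk2, 2.57 for Dkk3 and 2.10 for Fzd1, but 1.17 for Lrp5 and 1.08 for Fzd6. The 10 of opposite order were Axin2, Gsk3a, Wnt5b, Wnt9a, Tcf7, Tcf7l2, Znrf3 and the 3 Dvl genes. The share of all genes with either order was not computed, so these counts single out no trait of the 41 genes.

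Dishevelled proteins carry the signal from frizzled to the destruction complex and to the polarity branch. Dvl1 rose from P1 to P56 and Dvl2 and Dvl3 fell, while all 3 fell from P14 to P56, as did 28.5% of all genes. Dvl1 stood at 16.1, 15.6 and 15.1 CPM at P1, 24.7, 30.7 and 34.3 at P14, and 21.0, 22.6 and 21.2 at P56. Libraries of different ages were without overlap, with P14 highest, and the log2 change was 0.47 ± 0.11 from P1 to P56 (adjusted p = 0.00422) and 0.94 ± 0.11 from P1 to P14 (adjusted p = 8.35e-05). Dvl2 stood at 4.73, 5.88 and 5.49 CPM at P1, 3.45, 4.33 and 5.02 at P14, and 3.03, 3.12 and 2.72 at P56. Its P56 libraries were below all others, and the log2 change from P1 to P56 was −0.86 ± 0.16 (adjusted p = 0.000852). The call from P14 to P56, −0.53 ± 0.16 (adjusted p = 0.0175), was lost without P14 replicate 3 or P56 replicate 3 (−0.47 to −0.39). From P1 to P14 the value, −0.33 ± 0.15, passed the threshold without P14 replicate 3 (−0.46). An exon of Dvl2 overlaps Acadvl, an abundant gene of fatty acid oxidation, and an exon of Dvl1 overlaps Tas1r3, so reads of both genes of a pair may be mixed.

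Dvl3 stood at 30.4, 28.3 and 26.9 CPM at P1, 24.4, 30.2 and 33.2 at P14, and 20.3, 24.8 and 22.9 at P56. P1 and P56 did not overlap, and P14 overlapped both. On the log2 scale the change was −0.33 ± 0.12 from P1 to P56 (adjusted p = 0.0326) and −0.37 ± 0.12 from P14 to P56 (adjusted p = 0.0238). The first call was lost without P1 replicate 1, P1 replicate 2, P56 replicate 1 or P56 replicate 3 (−0.34 to −0.25), and the second without P14 replicate 2, P14 replicate 3, P56 replicate 1 or P56 replicate 3 (−0.37 to −0.27).

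In the destruction complex the scaffold Axin1 fell from P1 to P56 while Axin2 and Apc2, the less well counted partners of Axin1 and Apc, rose. Axin2 (chromosome 11, 108920349 to 108950783, plus strand), which the pathway itself induces in many tissues, stood at 2.15, 2.48 and 3.12 CPM at P1, 6.98, 7.25 and 7.89 at P14, and 6.64, 7.67 and 6.28 at P56. P1 was below all later libraries, and P14 and P56 overlapped. Axin2 rose 2.85-fold to P14 (log2 change 1.51 ± 0.15, adjusted p = 2.76e-05), the value after P14 was −0.10 ± 0.14 (adjusted p = 0.568), and the change from P1 to P56 was 1.41 ± 0.15 (adjusted p = 2.10e-05). Within P14, it was lowest in replicate 1, where the marker score was highest. Axin1 stood at 45.1, 46.5 and 41.9 CPM at P1, 37.4, 36.7 and 40.2 at P14, and 33.6, 39.1 and 36.2 at P56. P1 was above all later libraries, with a log2 change of −0.29 ± 0.07 from P1 to P56 (adjusted p = 0.00621). Its fall to P14, −0.22 ± 0.07 (adjusted p = 0.0271), missed the threshold without P1 replicate 1, P1 replicate 2 or P14 replicate 2 (−0.21 to −0.19). With the marker score as a covariate it was −0.07, and the call was lost. Per kilobase of exon, Axin1 stood at 11.6 CPM per kilobase and Axin2 at 0.469 at P1, and at 9.48 and 1.25 at P56.

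Apc2 stood at 1.77, 1.33 and 1.71 CPM at P1, 4.24, 3.68 and 3.56 at P14, and 6.57, 5.79 and 5.61 at P56. Libraries of different ages were without overlap and rose in order, by a log2 change of 1.90 ± 0.15 from P1 to P56 (3.73-fold, adjusted p = 2.33e-06). An exon of Apc2 overlaps the table's gene 2310011J03Rik. Apc, the large scaffold of the complex, stood at 284, 279 and 272 CPM at P1, 248, 242 and 254 at P14, and 304, 309 and 323 at P56. Its ages were without overlap, with P14 lowest, and the log2 change from P14 to P56 was 0.33 ± 0.05 (adjusted p = 0.000409). The call from P1 to P14, −0.17 ± 0.05 (adjusted p = 0.0171), was lost without P1 replicate 1, P1 replicate 2 or P14 replicate 2 (−0.17 to −0.15), and that from P1 to P56, 0.16 ± 0.05 (adjusted p = 0.0161), without P1 replicate 3 or P56 replicate 3 (0.14 to 0.15).

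The kinase genes moved in opposite directions around P14. Gsk3a stood at 10.2, 11.3 and 10.4 CPM at P1, 13.2, 14.7 and 16.4 at P14, and 9.20, 9.96 and 8.73 at P56. P14 was above all other libraries, and the log2 change was 0.47 ± 0.10 to P14 (adjusted p = 0.00309), −0.66 ± 0.10 after it (adjusted p = 0.000461) and −0.19 ± 0.10 over the span (adjusted p = 0.127). An exon of Gsk3a overlaps the table's gene 9130221H12Rik. Gsk3b stood at 227, 237 and 239 CPM at P1, 224, 207 and 206 at P14, and 255, 246 and 250 at P56. P14 was below all other libraries, and the log2 change from P14 to P56 was 0.24 ± 0.05 (adjusted p = 0.00395). The step from P1 to P14, −0.14 ± 0.05 (adjusted p = 0.0462), kept its call only without P14 replicate 1 and lost it without any other library (−0.16 to −0.12). Per kilobase of exon, Gsk3b stood at 23.8 CPM per kilobase at P1 and Gsk3a at 3.66.

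Ctnnb1, which encodes beta-catenin (chromosome 9, 120929216 to 120960507, plus strand), also serves as a link of cadherins to the cytoskeleton in the intercalated disc. It stood at 126, 126 and 128 CPM at P1, 135, 121 and 118 at P14, and 96.2, 102 and 110 at P56. The P56 libraries were below all others, and P1 and P14 overlapped. Fitted log2 changes were −0.30 ± 0.07 from P1 to P56 (0.811 times the P1 level, adjusted p = 0.00309), −0.28 ± 0.07 from P14 to P56 (adjusted p = 0.00621) and −0.02 ± 0.07 from P1 to P14 (adjusted p = 0.776). An exon of Ctnnb1 overlaps Ulk4, which is also in the table.

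Of the 4 nuclear factors, which bind DNA and recruit beta-catenin, Lef1, Tcf7 and Tcf7l1 fell from P1 to P56, as did 31.7% of all genes. Lef1 (chromosome 3, 131110471 to 131224356, plus strand) stood at 1.61, 1.4 and 2.58 CPM at P1, 1.15, 0.946 and 1.19 at P14, and 0.453, 0.207 and 0.334 at P56. Libraries of different ages were without overlap, falling with age, and the log2 change was −2.48 ± 0.32 from P1 to P56 (0.179 times the P1 level, adjusted p = 9.24e-05). Tcf7 stood at 1.33, 1.10 and 1.53 CPM at P1, 0.511, 0.568 and 1.08 at P14, and 0.340, 0.207 and 0.134 at P56. Its ages were without overlap too, although 1.08 at P14 lay close to 1.10 at P1, and the log2 change from P1 to P56 was −2.53 ± 0.38 (adjusted p = 0.00023). Both genes are also used by lymphocytes, whose markers Cd3e and Cd79a were not analysed here, and the part of lymphocytes in these values was not tested. For the step from P1 to P14, the calls of Lef1 (−0.77 ± 0.29, adjusted p = 0.0448) and Tcf7 (−0.88 ± 0.33, adjusted p = 0.0454) each missed the threshold without 1 library in 6 of 9 cases. For Lef1 these were P1 replicates 1 and 3, all P14 replicates and P56 replicate 3 (−0.86 to −0.46). For Tcf7 they were all P1 replicates, P14 replicates 1 and 2 and P56 replicate 2 (−0.99 to −0.68).

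Tcf7l1, best known as a repressor of targets, stood at 91.8, 97.1 and 86.0 CPM at P1, 166, 151 and 126 at P14, and 59.0, 65.3 and 65.7 at P56. Libraries of different ages were without overlap, with P14 highest. On the log2 scale the change was 0.69 ± 0.10 to P14 (adjusted p = 0.000263), −1.22 ± 0.10 after it (adjusted p = 1.13e-05) and −0.53 ± 0.10 from P1 to P56 (adjusted p = 0.000908). Tcf7l2 stood at 336, 351 and 311 CPM at P1, 275, 329 and 351 at P14, and 290, 349 and 337 at P56. All ages overlapped, and the log2 change was −0.03 ± 0.10 from P1 to P56 (adjusted p = 0.798). Tcf7l2 had the highest level of the 4 per kilobase of exon at P1, 37.9 CPM per kilobase, against 23.4 for Tcf7l1, 0.503 for Tcf7 and 0.212 for Lef1; at P56 the values were 37.0, 16.1, 0.0863 and 0.0377.

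Among the 13 genes higher at P14 than the mean of P1 and P56 were 4 ligands (Wnt9b, Wnt2, Wnt5b and Wnt9a), the antagonists Dkk2 and Dkk3, Lrp5, Fzd6, Lgr6, Dvl1, Gsk3a, Axin2 and Tcf7l1. The log2 difference was 1.06 ± 0.12 for Wnt5b (adjusted p = 9.66e-05), 1.01 ± 0.10 for Wnt9a (adjusted p = 6.71e-05), 0.95 ± 0.08 for Tcf7l1 (adjusted p = 2.97e-05) and 0.82 ± 0.07 for Lrp5 (adjusted p = 3.07e-05). Dkk2, Wnt2 and Dkk3 were above that mean by 3.12 ± 0.42, 3.04 ± 0.50 and 1.55 ± 0.29. With the marker score as a covariate the values were 1.34, 0.59 and −0.14, and all 3 calls were lost or turned. The call of Lgr6, 0.37 ± 0.12 (adjusted p = 0.0260), was lost without P1 replicate 1, P1 replicate 3, P14 replicate 2 or P14 replicate 3 (0.26 to 0.36). The 6 genes lower at P14 were Fzd9, Fzd8, Fzd3, Apc, Gsk3b and Znrf3.

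A further 90 measured genes of the pathway, of 102 listed, were counted in 5 groups for comparison. From P1 to P56, 14 rose and 52 fell, where 30.9% of all genes rose and 31.7% fell, with a median log2 change of −0.47 against −0.03 over all genes. Of 15 genes for secretion, co-receptors and extracellular regulators, 1 rose and 10 fell, and Ror2, a receptor of Wnt5a, went from 129 ± 12.8 to 19.2 ± 8.09 and 1.74 ± 0.536 CPM over the 3 ages. Its log2 change of −6.21 ± 0.34 (adjusted p = 2.22e-07) ran opposite to the rise of Wnt5a itself over the same libraries. Gpc3, a glypican that binds Wnt proteins, went from 70.2 ± 6.56 to 6.89 ± 4.82 and 0.831 ± 0.280 CPM (log2 change −6.40 ± 0.50), and the co-receptor gene Ptk7 from 25.8 ± 1.28 to 11.2 ± 1.80 and 3.23 ± 0.213 CPM (−3.0 ± 0.13). Kremen1, a receptor of Dkk proteins, was the single gene of this group that rose, by 0.64 ± 0.09.

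Of 25 further destruction complex and cytoplasmic regulators, 1 rose and 18 fell from P1 to P56, where 30.9% of all genes rose and 31.7% fell. Nkd2, which encodes a dishevelled-binding inhibitor, went from 28.2 ± 2.08 to 5.70 ± 1.19 and 0.664 ± 0.0546 CPM (−5.40 ± 0.18, adjusted p = 1.11e-08), and its relative Nkd1 from 5.34 ± 0.481 to 5.06 ± 1.55 and 0.394 ± 0.142 CPM (−3.76 ± 0.30). Dixdc1, which binds dishevelled and Axin, changed by −2.07 ± 0.07. Of 14 planar cell polarity genes, 5 rose and 7 fell, against the same shares of all genes, and the share that rose was close to them. Vangl2, a core membrane protein of that branch, went from 9.79 ± 0.238 to 3.32 ± 0.841 and 0.303 ± 0.110 CPM (−5.01 ± 0.26, adjusted p = 1.74e-07). Intu, an effector needed for cilia, rose from 42.6 ± 1.06 to 151 ± 21.3 and 271 ± 10.6 CPM (2.67 ± 0.10, adjusted p = 2.08e-08).

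Of 20 nuclear cofactors of beta-catenin, 4 rose and 9 fell from P1 to P56, against 30.9% and 31.7% of all genes. Changes were 0.80 ± 0.10 for Pygo1 and 0.61 ± 0.11 for Bcl9, both coactivators, and −0.69 ± 0.05 for the kinase gene Nlk. Of 16 known targets of the pathway outside the 41 genes, 3 rose and 8 fell, against the same shares of all genes. Myc changed by −2.55 ± 0.31 (adjusted p = 4.90e-05) and Wisp1 by −2.43 ± 0.13 (adjusted p = 2.02e-07), while Ppard rose by 1.86 ± 0.21 (adjusted p = 3.59e-05) and Cd44 by 1.15 ± 0.12 (adjusted p = 1.69e-05). The level of Ccnd1, also counted as a target, was 3.36 ± 0.201 CPM (P1), 3.63 ± 1.21 (P14) and 2.10 ± 0.844 (P56) (adjusted p = 0.064 for P56 against P1). Of the same 90 genes, 24 rose and 41 fell from P1 to P14, against 28.4% and 27.5% of all genes, and 17 rose and 44 fell from P14 to P56, against 27.5% and 28.5%. Many genes in these groups respond to other pathways as well, so their counts describe the lists and no pathway activity.

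With the marker score as a covariate, 31 of the 33 calls between P1 and P56 kept their direction and passed the threshold, and those of Apc (0.13) and Wnt9b (−1.10) were lost. The same count was 24 of 33 for P14 against P1, with 7 lost and 2 turned. The lost calls had log2 changes of −0.10 for Apc, −0.07 for Axin1, 0.19 for Dkk2, 0.36 for Fzd7, −0.73 for Tcf7, 0.52 for Wnt5a and −0.10 for Znrf3. For P56 against P14, 15 of 29 calls held, with 12 lost and 2 turned. Those lost were 0.23 for Apc, −0.24 for Ctnnb1, −0.91 for Dkk3, 3.12 for Fzd9, −1.01 for Lef1, 0.43 for Lgr6, −0.24 for Lrp5, −1.53 for Rspo3, −0.25 for Sfrp1, −1.89 for Tcf7, −1.36 for Wnt2 and 0.92 for Wnt5a. Among these, Fzd9, Tcf7 and Wnt5a lay farther from 0 than without the score, and the rest lay closer. The SE of those genes was 1.15, 0.79 and 0.35 with the score, against 0.57, 0.40 and 0.17 without it. A lost call is therefore not always a smaller change. For P14 against the mean of P1 and P56, 13 of 19 held, with Apc (−0.17), Dkk2, Fzd3 (−0.13) and Wnt2 lost and Dkk3 and Znrf3 turned. Calls were gained with the score too. They were −0.20 for Tcf7l2 and −0.29 for Gsk3a from P1 to P56, 0.37 for Dvl3 from P1 to P14 and 1.13 for Fzd4 from P14 to P56. In the contrast of P14 with the mean they were 0.62 for Dvl3 and −1.38 for Fzd1. Further gains came with a turn of direction and are among the values given in the closing section. Some calls that held had values farther from 0 with the score, such as 2.14 for Fzd7, −1.26 for Wnt5b and −0.87 for Dvl3 from P14 to P56, and −2.02 for Fzd1 and −3.55 for Sfrp1 from P1 to P14. The comparisons with P14 are those in which the markers of other cell types differed most, and the score cannot be told apart from age in full, since the P14 scores lay above all others. The score also averages marker lists that moved in opposite directions between P1 and P56. A change of a single cell type may therefore remain in the calls that held between those ages. Of the 41 genes, 19 overlap no other annotated gene, 22 do, and 14 do so within an exon; 9 of the overlaps are with another gene of the table. The strand setting of the counting is likewise unknown here, and reads of such pairs cannot be told apart.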

How the data were processed

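Measured were transcripts in 9 cardiomyocyte libraries of CD-1 mice, 3 each at P1, P14 and P56. The authors deposited 1 table of raw counts per gene and library; per the submitters' processing notes reads were converted with bcl2fastq (2.17.1.14), and STAR (2.4.0g1) and featureCounts (1.4.2) were run on build GRCm38. Annotation version, strand and counting over exons or genes are not given in the sources used here, and the smallest mean count of a table row was 10, so weakly counted genes may have been removed before deposit.

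Counts were analysed in R 4.3.3 with edgeR 4.0.16: filterByExpr left 15817 of 15824 genes (none of the 41 was removed), TMM scaled the library sizes, and 1 quasi-likelihood fit (glmQLFit, glmQLFTest) took the 9 libraries together, with age as its single term. P-values were adjusted by Benjamini-Hochberg over all 15817 genes, with a threshold of 0.05. A log2 change is given with its SE, the change divided by the square root of F, and a level as CPM, mean ± SD of 3 libraries where not given per library. Same-age libraries differed by more than counting error (chi-square per degree of freedom 5.48 to 100.9), so none was counted as a duplicate. Replicate numbers were not used to pair the ages in this fit. Alternatives were DESeq2 1.42.0, its size factors, other filters, fits of 2 ages, a replicate block, the marker score as a covariate, a test against a log2 change of 1 (glmTreat) and leaving out each library. The code was tested on simulated data.

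Positions, lengths and overlaps came from GENCODE for GRCm38 and promoter windows from RefSeq (GRCm38.p6), matched by symbol. Every one of the 41 genes could be named; values per library were planned for up to 4 genes per role and direction and for a fixed set, and are given here for more. From the other pathway lists, genes with the largest changes past the threshold and at least 1 CPM in the higher age could be named, and Ccnd1 was added after its values were seen. The genes and all lists were chosen with earlier results of these data known.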

Additional observations from a re-analysis of the deposited data

How the results depend on the processing

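The numbers of Wnt genes that rose or fell were within 1.5 times the reported ones under DESeq2, its size factors, no filter on low counts, a filter of 1 CPM in 3 libraries and fits of only the 2 ages compared. Replicate numbers did not pair the libraries throughout: deviations of same-numbered libraries correlated at −0.219 to 0.493, and not all were over 0.1. Between P14 and P56 the value was 0.493 for replicate 1, 0.0077 for replicate 2 and 0.364 for replicate 3. Whether same-numbered libraries of these ages shared any handling was not tested. The highest correlation of a library was with one of its own number for 5 of 9 libraries, and within each of the other 2 ages for 1 of 9. With the replicate block, 1 call of the 41 genes was gained, that of Fzd2 from P14 to P56, and 2 were lost, Gsk3b from P1 to P14 and Sfrp2 from P14 to P56.

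When a change was tested against a log2 change of 1 by glmTreat, 5 genes rose and 3 fell from P1 to P14, 1 rose and 6 fell from P14 to P56, and 6 rose and 10 fell from P1 to P56. At P14 against the mean of P1 and P56, 3 were higher and 0 lower by glmTreat (1 lower at an unadjusted p under 0.05), where edgeR's test against no change and DESeq2 each gave 6 lower. Fewer calls follow from the construction of this test. With the marker score as a covariate, 5 of the 41 genes rose and 13 fell from P14 to P56, and 2552 genes of the table rose and 2441 fell. The median log2 change of the 41 genes from P1 to P14, near 0 as reported, was −0.066 with the marker score and −0.0708 without P14 replicate 1. From P14 to P56 the median was −0.33 with the filter of 1 CPM in 3 libraries, −0.42 in the fit of 2 ages, −0.24 with the marker score and −0.19 over genes of at least 1 CPM, over which the median from P1 to P56 was −0.11.

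Without 1 library at a time, 15 to 17 genes rose and 11 to 15 fell from P1 to P14, 8 to 10 rose and 18 to 21 fell from P14 to P56, and 11 to 12 rose and 18 to 21 fell from P1 to P56. The median was −0.0708 to 0.0846, −0.47 to −0.36 and −0.34 to −0.24 in these comparisons. In the contrast of P14 with the mean, 12 to 15 were higher and 4 to 7 lower.

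Among single genes of the 41, values past the threshold in either fit turned direction only with the marker score as a covariate. From P1 to P14 the log2 change became −1.18 for Dkk3, −0.11 for Fzd4, 0.28 for Tcf7l2 and −0.19 for Wnt2. From P14 to P56 it became 0.73 for Fzd1, 0.25 for Sfrp2, −0.48 for Tcf7l2 and −0.34 for Znrf3. For P14 against the mean of P1 and P56 it became −0.14 for Dkk3, −0.62 for Fzd4, −1.65 for Sfrp1, 0.38 for Tcf7l2 and 0.12 for Znrf3. The cause was not tested. Depth limits Wnt2, Wnt9b, Dkk2 and Sfrp2 at P56 and Fzd9 at P14, which rest on 8 counts or fewer per library.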
